A study of Mus musculus with 8 samples.

Results

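The complement and coagulation cascade genes described here are 43 genes, most of them encoding plasma proteins made in the liver, out of 54232 genes in a count table of mouse liver RNA. They were taken by name from a list of complement factors, coagulation factors, fibrinogen chains, kinin-system proteins, anticoagulants and fibrinolysis proteins, and all 43 names were found in the table. Liver RNA was sequenced from 6-month-old mice of 2 genotypes, with 4 libraries labelled Atp7b KO, after the liver's copper-exporting ATPase, whose human gene is mutated in Wilson disease, and 4 libraries labelled WT. The labels name no treatment, strain, sex or Atp7b allele, and do not tie each library to an animal of its own, so p-values measure only the spread among these libraries, which may be technical. Total counts were 14583961 to 18423836 per KO library and 9880253 to 27530506 per WT library.

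Complement and coagulation are cascades of plasma proteases, in which each active enzyme cleaves the precursor of the next. Complement is started by C1, by mannose-binding lectins or by spontaneous turnover of C3. All 3 routes build enzymes that cleave C3 and then C5, and end in a pore made of C5b, C6, C7, C8 and C9. In coagulation, factors VII, IX, X and XI lead to thrombin, which turns fibrinogen into fibrin, while protein C, protein S and tissue factor pathway inhibitor hold the cascade back and plasmin dissolves the clot. Hepatocytes are the main source of most of these proteins, and for that reason their plasma levels are used in the clinic as a measure of the liver's synthetic capacity. In several of the genes, promoter elements for C/EBP and FOXA factors have been described.

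The stretch from 250 bases before to 50 bases after the start of transcription was available from RefSeq (build GRCm38.p6) for 35 of the 43 genes, as 38 windows. Windows of Klkb1 and Pros1, the pair of genes called under every alternative fit, of F11, the neighbour of Klkb1, and of C9, as an example from the terminal pathway with a match, are printed 5′ to 3′ on the gene's own strand. Capitals mark a match, on either strand, to C/EBP (TTGCNNAA) or FOXA (TGTTTAC). Klkb1 (plasma prekallikrein; chr8:45294786-45295085, minus strand) and F11 (factor XI; chr8:45261982-45262281, minus strand) are neighbouring genes of related sequence, C9 (chr15:6445096-6445395, plus strand) encodes the pore-forming part of the terminal pathway, and Pros1 (protein S; chr16:62854057-62854356, plus strand) had none of the motifs.
Klkb1: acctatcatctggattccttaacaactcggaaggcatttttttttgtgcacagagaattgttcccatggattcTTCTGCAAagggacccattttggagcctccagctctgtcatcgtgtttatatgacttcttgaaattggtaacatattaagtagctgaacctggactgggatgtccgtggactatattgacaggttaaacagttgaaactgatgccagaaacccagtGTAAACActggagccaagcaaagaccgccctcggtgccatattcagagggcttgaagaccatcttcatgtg
F11: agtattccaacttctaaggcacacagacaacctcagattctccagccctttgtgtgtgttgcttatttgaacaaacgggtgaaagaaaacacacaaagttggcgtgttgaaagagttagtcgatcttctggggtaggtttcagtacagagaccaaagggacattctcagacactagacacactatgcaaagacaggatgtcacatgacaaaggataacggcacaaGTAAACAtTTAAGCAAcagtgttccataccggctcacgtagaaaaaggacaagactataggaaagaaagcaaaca
C9: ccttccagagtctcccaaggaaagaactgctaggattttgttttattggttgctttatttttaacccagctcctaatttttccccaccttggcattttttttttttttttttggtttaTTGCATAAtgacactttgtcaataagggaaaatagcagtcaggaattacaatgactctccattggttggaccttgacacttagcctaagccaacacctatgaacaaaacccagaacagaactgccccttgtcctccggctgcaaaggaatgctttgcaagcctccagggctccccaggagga
Pros1: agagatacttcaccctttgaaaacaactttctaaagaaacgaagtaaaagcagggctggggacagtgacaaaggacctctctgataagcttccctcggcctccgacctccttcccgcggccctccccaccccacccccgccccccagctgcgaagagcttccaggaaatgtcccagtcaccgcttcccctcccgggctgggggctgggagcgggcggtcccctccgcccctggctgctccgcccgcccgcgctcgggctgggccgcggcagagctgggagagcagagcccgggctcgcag

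Klkb1 held a FOXA match 21 bases and a C/EBP match 177 bases before the start, and F11 held a FOXA match 25 bases and a C/EBP match 17 bases before it. C9 held a C/EBP match 132 bases before the start. Over the 38 windows, C/EBP was matched in 13 (34.2%, against 10.8% of 32851 mouse promoter windows), FOXA in 2 (5.26%, against 3.65%) and HNF4 (CAAAGTCCA) in 0 (against 0.47%). Strings as rare as those of FOXA and HNF4 are too seldom found for 38 windows to show a difference from all promoters. None of the marked matches overlapped another. A match describes the letters of the window and says nothing of whether a factor binds there.

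Atp7b itself (build mm10, chromosome 8, 21992785 to 22060305, minus strand) was read first, as a check of the labels. It had 8.76, 8.91, 6.503 and 7.15 CPM (counts scaled to library size after TMM correction) in KO replicates 1 to 4, against 28.9, 31.95, 9.63 and 27.4 CPM in WT replicates 1 to 4. The genotypes did not overlap, although WT replicate 3 lay close to the KO libraries, and the log2 fold change was -1.65 ± 0.32 (SE), adjusted p = 0.00313. In a principal component plot of all genes, the first component (68.3% of the variance) separated the genotypes, and WT replicate 3 stood apart on the second (19.0%), at -92.9 against 18 to 40.7 for the other WT libraries. Values of the genes given library by library, and of the genes named from other lists, are therefore also stated without that library. Marker genes of hepatocytes summed to 58176 to 81219 CPM in KO libraries and 82016 to 141271 CPM in WT libraries, with 0 of 14 called higher, 3 lower and a median log2 fold change of -0.62. Markers of bile duct cells (7 tested, 7 called higher) summed to 416 to 1013 CPM in KO libraries and 31.6 to 78.6 CPM in WT libraries, of macrophages (8 tested, 1 higher) to 326 to 871 CPM in KO libraries and 145 to 523 CPM in WT libraries, of stellate cells (8 tested, 3 higher) to 518 to 690.4 CPM in KO libraries and 229 to 418 CPM in WT libraries, and none of the marker genes listed was at 0 in all libraries. In bulk liver RNA, fewer hepatocytes and less RNA of a gene per hepatocyte cannot be told apart, and the part of these cell mixtures in the results was not tested.

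Most of the complement and coagulation genes did not pass the test between genotypes. All 43 were tested: Pros1, Cfi and C9 were higher in KO livers, Klkb1, C8g and Cfd were lower, and 37 were not called (edgeR's quasi-likelihood test, Benjamini-Hochberg adjusted p under 0.05 over 15811 genes). That is 14.0% of the 43, set beside 30.0% of all genes tested (17.6% higher and 12.5% lower). The median log2 fold change, KO minus WT, was -0.18 over the 43 genes, against -0.05 over all genes tested, and the extremes were -1.66 for Cfd and 1.13 for Mbl2. For 28 of the 43 genes the value was below 0 and for 15 it was above. The KO and WT libraries did not overlap for 9 of the 43 genes, where 32.1% of all genes did not overlap. As a share of all counts, the 43 genes held 3.45 to 3.79% in KO libraries, against 3.42, 3.55, 2.50 and 3.23% in WT replicates 1 to 4. These shares are of unscaled totals, while the log2 fold changes use TMM factors of 1.08 to 1.22 in KO libraries and 0.716 to 0.952 in WT libraries. The direction of the median depends on that scaling, and with library totals only the median of the 43 genes was 0.22.

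**Figure D1:**
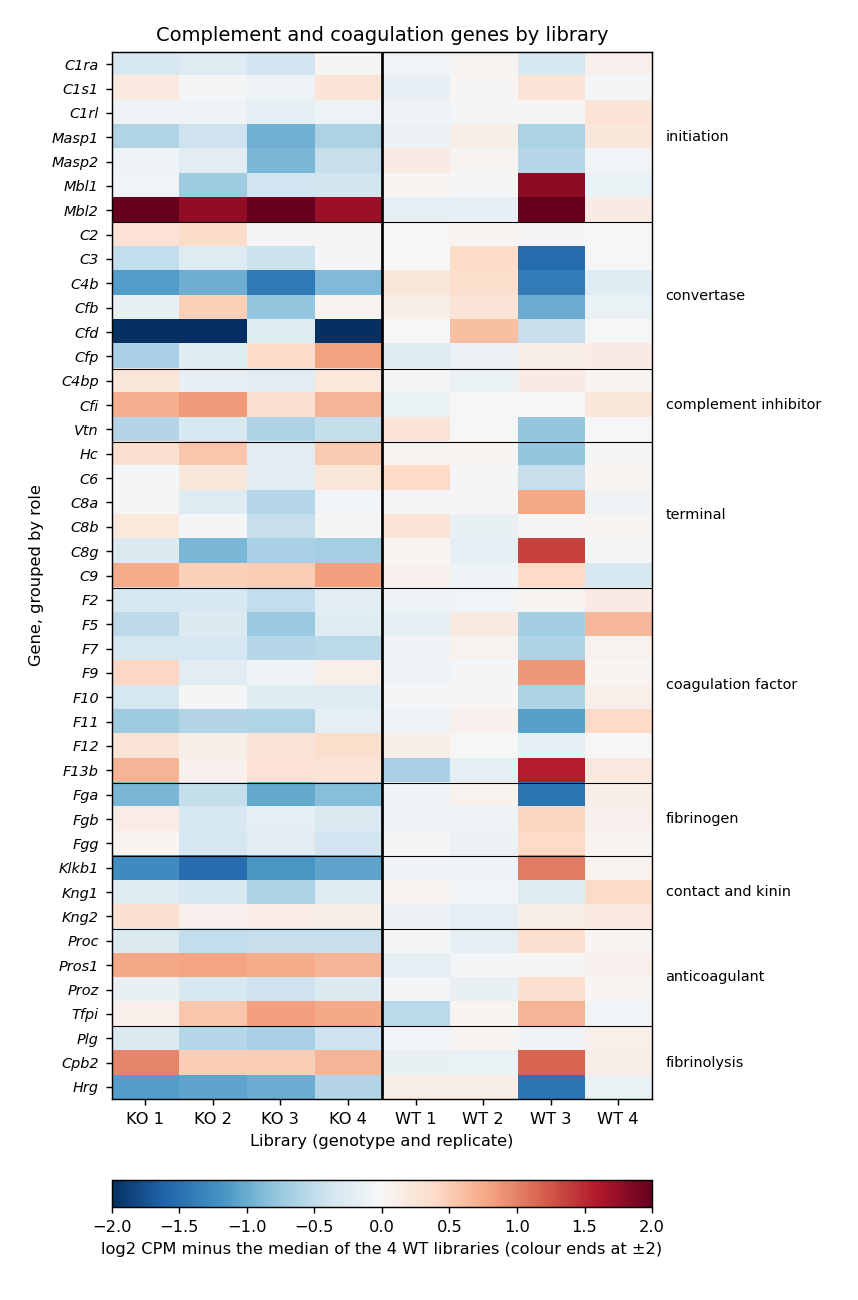
Level of each of the 43 genes in each library, as log2 CPM minus the median of the 4 WT libraries, with genes in rows grouped by role and the KO libraries left of the WT libraries. Red is higher and blue lower than the WT median. WT replicate 3 differs from the other WT libraries in many rows, among them Mbl1, Mbl2, C8g, Klkb1 and Fga.

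The count of called genes turned on WT replicate 3 and on how libraries were scaled. That library had the fewest counts (9880253). It also had the fewest genes with a count (19726, against 21368 to 23119 in the other WT libraries) and the lowest TMM factor (0.716, against 0.848 to 0.952). The part of its depth in the results was not tested. WT replicate 3 lay above the other 3 WT libraries in 16 of the 43 genes and below them in 20, against 38.0% and 41.0% of all genes tested. Without it, 6 of the 43 genes were called higher and 14 lower (46.5%, against 49.3% of all 16423 genes tested in that fit). The higher ones were Mbl2, Cfi, C9, Pros1, Tfpi and Cpb2, and the lower ones were Masp1, C4b, Cfd, Vtn, C8g, F5, F7, F11, Fga, Klkb1, Kng1, Proc, Plg and Hrg. Leaving out any other single library gave 1 or 2 higher and 1 or 2 lower (1 and 1 without KO replicate 1, 2 or 4, 2 and 2 without KO replicate 3 or WT replicate 4, and 1 and 2 without WT replicate 1 or 2). That is 4.65 to 9.30% of the 43 genes, against 22.9 to 27.2% of all genes tested in those fits. For 25 of the 43 genes all 4 KO libraries lay outside the range of WT replicates 1, 2 and 4, 6 above and 19 below it (58.1%, against 51.9% of all genes). In 18 of those 25, WT replicate 3 lay on the side of the KO libraries (72.0%, against 57.7% of such genes overall), and in 4 (C8g, Klkb1, Proc and Proz) on the other side.

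Scaling by library totals only, in place of TMM, gave 11 genes higher and 1 lower (27.9% called, against 34.4% of all genes tested). Totals without the 10 most abundant genes gave 10 and 1 (25.6%, against 33.1%). Under these scalings the median of all genes tested was 0.37 and 0.32, and that of the 43 genes 0.22 and 0.18. Upper-quartile factors gave 3 higher and 1 lower (9.30%, against 29.0% of all genes tested), RLE factors 2 and 4 (14.0%, against 30.2%), and DESeq2 3 and 9 (27.9%, against 35.5%). Pros1 (higher) and Klkb1 (lower) were called under all 16 alternative fits, and 16 of the 43 genes under none of them.

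Klkb1 and Pros1 are the members whose difference held in every fit. Klkb1 (chromosome 8, 45266689 to 45294859, minus strand) encodes plasma prekallikrein, the precursor of the protease that frees bradykinin from kininogen and activates factor XII. It had 95.9, 79.3, 102 and 110.1 CPM in KO replicates 1 to 4, against 217, 216, 468 and 240.4 CPM in WT replicates 1 to 4. Every KO library was below every WT library, and WT replicate 3 was the highest of all 8. The means were 96.8 ± 13.05 CPM in KO and 285 ± 122 CPM in WT (SD, n = 4 each), 2.95-fold lower in KO, with a log2 fold change of -1.56 ± 0.27 (SE), adjusted p = 0.001602 in edgeR's quasi-likelihood test. It was -1.23, adjusted p = 3.16e-05 without WT replicate 3, and between -1.68 and -1.08 over the 16 alternatives. A predicted protein-coding gene, Gm45753, overlaps 43.2% of the exon bases of Klkb1 on the same strand, and it had 0 counts in all 8 libraries. How reads in the shared bases were counted is not stated, so the level of Klkb1 may be too low in both genotypes.

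Pros1 (chromosome 16, 62854307 to 62929346, plus strand) encodes protein S, the vitamin K-dependent cofactor of activated protein C and of tissue factor pathway inhibitor. It had 97.2, 98.1, 94.9 and 91.6 CPM in KO replicates 1 to 4, against 49.98, 55.9, 58.2 and 60.5 CPM in WT replicates 1 to 4. The genotypes were well apart, with all KO libraries within a narrow band. The means were 95.5 ± 2.88 CPM in KO and 56.1 ± 4.505 CPM in WT (SD, n = 4 each), 1.701-fold higher in KO, and the log2 fold change was 0.77 ± 0.14 (SE), adjusted p = 0.002301 in edgeR's quasi-likelihood test. Without WT replicate 3 it was 0.77, adjusted p = 2.99e-04, and over the 16 alternatives it ran between 0.70 and 1.2. Protein S is also made by endothelial cells, macrophages and platelets. The summed endothelial markers were 104 to 186 CPM in KO libraries and 143 to 230.5 CPM in WT libraries. Those of macrophages were 326 to 871 CPM in KO libraries and 145 to 523 CPM in WT libraries. Platelet markers summed to 5.01 to 6.81 CPM in KO libraries and 5.899 to 6.303 CPM in WT libraries. The part of these cells was not tested.

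**Figure D2:**
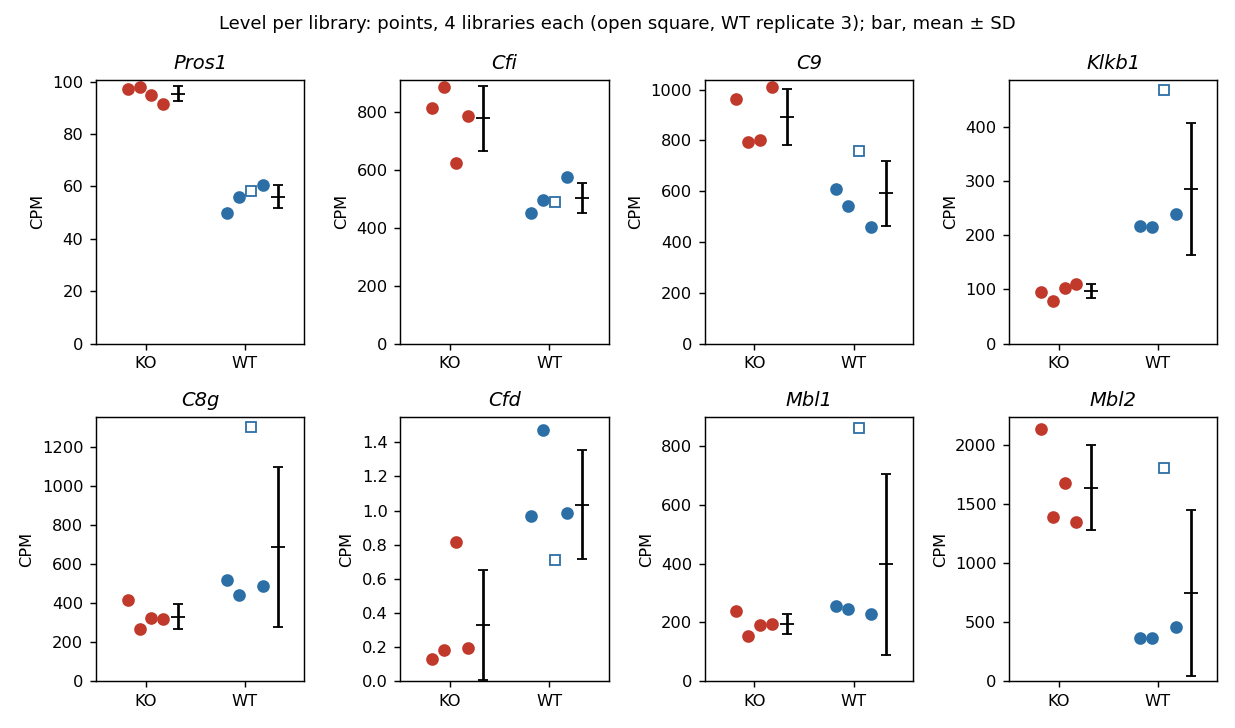
CPM of the 6 called genes and of Mbl1 and Mbl2 in each library, KO left and WT right in every panel, with the mean ± SD beside the points and WT replicate 3 as an open square. Pros1 and Klkb1 are separated in all libraries, and the panels of Mbl1, Mbl2, C8g and Klkb1 show WT replicate 3 far above the other WT libraries.

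Among the 7 genes that start the classical and lectin routes, 0 were called in either direction, with a median log2 fold change of -0.18. At an unadjusted p under 0.05 there were 3 (Masp1, Mbl1 and Mbl2), and DESeq2 called Masp1 and Mbl1 lower. Of the 3, Mbl2 is described because of its values. Mbl1 and Mbl2 encode the 2 mouse mannose-binding lectins, which bind sugars on microbes and carry the MASP proteases. Mbl1 had 239.5, 153, 189.7 and 193 CPM in KO replicates 1 to 4, against 256, 244, 861 and 229 CPM in WT replicates 1 to 4. The KO libraries overlapped the WT range, and WT replicate 3 was more than 3 times any other library. Mbl2 had 2129, 1392, 1672 and 1347 CPM in KO replicates 1 to 4, against 361, 363, 1799 and 460.3 CPM in WT replicates 1 to 4. In 3 WT libraries Mbl2 was far below all KO libraries, while in WT replicate 3 it lay within the KO range. The log2 fold changes were -1.03 ± 0.42 (SE), adjusted p = 0.0876 for Mbl1 and 1.13 ± 0.50 (SE), adjusted p = 0.116 for Mbl2 in edgeR's quasi-likelihood test. Leaving out WT replicate 3 gave -0.34, adjusted p = 0.0967 for Mbl1 and 2.04, adjusted p = 8.89e-06 for Mbl2.

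Masp1, a protease that the lectins carry and that activates MASP-2, had 103, 117, 80.3 and 101 CPM in KO replicates 1 to 4, against 144, 169, 101 and 183 CPM in WT replicates 1 to 4. WT replicate 3 lay inside the KO range and the other WT libraries lay above it. Its log2 fold change was -0.58 ± 0.21 (SE), adjusted p = 0.0659, and -0.74, adjusted p = 0.00151 without WT replicate 3. C1ra, C1s1, C1rl and Masp2, proteases of the C1 complex, a C1r-like protease and the protease that cleaves C4 and C2, had log2 fold changes of -0.31 to 0.05 (adjusted p 0.342 to 0.865). Of the Masp2 exon bases, 54.9% overlap Tardbp on the opposite strand, and of those of C1s1 18.4% overlap an antisense gene, so without a stated strand setting their reads cannot be told apart. C1ra shares 11.1% of its 50-base stretches with its copy C1rb.

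Of the 6 genes that build or stabilise the enzymes that cleave C3, 1 was lower and 5 were not called. Cfd, factor D, which cleaves factor B and is made mainly by fat cells, was the lower one, at a level near the limit of detection: 2, 4, 16 and 4 reads in KO replicates 1 to 4, against 11, 24, 5 and 23 reads in WT replicates 1 to 4. In CPM that was 0.127, 0.184, 0.813 and 0.192 CPM in KO replicates 1 to 4, against 0.968, 1.47, 0.708 and 0.986 CPM in WT replicates 1 to 4. KO replicate 3 lay within the WT range and the other KO libraries below it, and 3 reads correspond to 0.138 to 0.1905 CPM in KO libraries and 0.129 to 0.425 CPM in WT libraries. Its log2 fold change was -1.66 ± 0.53 (SE), adjusted p = 0.0362 in edgeR's quasi-likelihood test, and -2.59 (adjusted p = 0.00217) without KO replicate 3, and -1.77, adjusted p = 0.0149 without WT replicate 3. The call was lost without KO replicate 1 (0.08899), KO replicate 2 (0.106), KO replicate 4 (0.0933), WT replicate 1 (0.0565), WT replicate 2 (0.103) or WT replicate 4 (0.0706), with the adjusted p in parentheses. It was also lost with library totals only (-1.25, adjusted p = 0.112), totals without the 10 most abundant genes (0.09701) and upper-quartile factors (0.0525). Fat cell markers summed to 11.7 to 21.03 CPM in KO libraries and 17.5 to 28.2 CPM in WT libraries. Most of that sum was Fabp4 (mean 8.59 CPM in KO and 10.4 CPM in WT) and Pparg (6.32 CPM in KO and 11.2 CPM in WT). Adipoq (0.313 CPM in KO and 0.0928 CPM in WT), Cidea (0.961 CPM in KO and 0.147 CPM in WT), Plin1 and Lep had higher means in KO, and Retn a lower one. These last genes did not pass the filter on low counts, and the part of fat cells was not tested.

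C4b, the complement C4 that forms an enzyme with C2, had 671, 741, 545 and 785 CPM in KO replicates 1 to 4, against 1712, 1850.3, 553 and 1229 CPM in WT replicates 1 to 4. WT replicate 3 lay at the low end of the KO range and the other WT libraries were well above it. The log2 fold change was -0.96 ± 0.33 (SE), adjusted p = 0.0507 with all libraries and -1.23, adjusted p = 1.82e-04 without WT replicate 3. C4b shares 26.8% of its 50-base stretches with C4a, so its reads may be divided between the copies. C3, the central component, which was chosen here after its values were seen, had 3606, 4220.4, 3764 and 4998 CPM in KO replicates 1 to 4, against 5047, 6515, 1737 and 5077 CPM in WT replicates 1 to 4. It gave a log2 fold change of -0.15 ± 0.35 (SE), adjusted p = 0.786 and, without WT replicate 3, -0.43, adjusted p = 0.0771. C2, Cfb and properdin (Cfp, a stabiliser of the enzyme made by leukocytes) had log2 fold changes of 0.05 to 0.19 (adjusted p 0.432 to 0.9303). Cfb was measured at only 2.21 ± 0.748 CPM in KO and 2.09 ± 0.691 CPM in WT (SD, n = 4 each). Of its exon bases 79.5%, and of those of C2 42.8%, overlap the predicted gene Gm20547 on the same strand, which had 0 counts in all libraries. Since the way reads in shared bases were counted is not stated, the levels of Cfb and C2 may be too low in both genotypes.

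Of the 3 inhibitors, 1 was higher and 2 were not called. Cfi, factor I, the protease that inactivates C3b and C4b, had 815, 889, 624 and 787 CPM in KO replicates 1 to 4, against 451, 497, 491 and 576 CPM in WT replicates 1 to 4. All KO libraries were above all WT libraries. The log2 fold change was 0.63 ± 0.18 (SE), adjusted p = 0.0234 in edgeR's quasi-likelihood test, and 0.60, adjusted p = 0.00968 without WT replicate 3. The call was lost without KO replicate 1 (0.0655), KO replicate 2 (0.0798), KO replicate 4 (0.0602), WT replicate 1 (0.0679) or WT replicate 2 (0.0647). Vtn, vitronectin, which blocks the terminal complex, had 1077, 1294, 1052 and 1168 CPM in KO replicates 1 to 4, against 1942, 1619, 945 and 1619 CPM in WT replicates 1 to 4. WT replicate 3 was the lowest of the 8 libraries and the other 3 WT libraries were the highest. Its log2 fold change was -0.42 ± 0.23 (SE), adjusted p = 0.206 with all libraries and -0.60, adjusted p = 0.006601 without WT replicate 3. C4bp, the cofactor that helps factor I cleave C4b, had a log2 fold change of 0.02 ± 0.18 (SE), adjusted p = 0.961.

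Of the 6 genes of the terminal pathway, C9 was higher, C8g was lower and 4 were not called. C9, the subunit that closes the membrane pore, had 964, 794, 802 and 1011 CPM in KO replicates 1 to 4, against 607, 541, 759 and 458 CPM in WT replicates 1 to 4. The genotypes did not overlap, but the lowest KO library was only slightly above WT replicate 3. The log2 fold change was 0.59 ± 0.20 (SE), adjusted p = 0.0487, and 0.73, adjusted p = 0.00319 without WT replicate 3, in edgeR's quasi-likelihood test. The call was lost without KO replicate 1 (0.1202), KO replicate 2 (0.0751), KO replicate 3 (0.0729), KO replicate 4 (0.132), WT replicate 1 (0.0904), WT replicate 2 (0.117) or WT replicate 4 (0.119), and also with RLE factors (0.0574), with no filter (0.0579) and with the number series as a covariate (0.0579). C8g, the gamma chain of C8, a lipocalin that is joined to the alpha chain, had 415, 265, 320.4 and 315 CPM in KO replicates 1 to 4, against 515, 440.4, 1299 and 488 CPM in WT replicates 1 to 4. KO libraries were below all WT libraries, and WT replicate 3 stood far above the rest. For C8g the log2 fold change was -1.06 ± 0.35 (SE), adjusted p = 0.0404 and, without WT replicate 3, -0.56, adjusted p = 0.01404. The call was lost without KO replicate 1 (0.05304), KO replicate 2 (0.114), KO replicate 3 (0.0972) or KO replicate 4 (0.0907), and also with library totals only (-0.57, adjusted p = 0.1297), totals without the 10 most abundant genes (0.114), upper-quartile factors (0.0618) and the stricter filter (0.06996). Hc, C6, C8a and C8b had log2 fold changes of -0.42 to 0.47 (adjusted p 0.182 to 0.881). Per kilobase of exon, the 3 chains of C8 were at 171 in KO and 229 in WT CPM per kb (C8a), 86.6 in KO and 91.9 in WT (C8b) and 220.3 in KO and 459 in WT (C8g).

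None of the 8 coagulation factor genes passed the test (0 higher, 0 lower, median log2 fold change -0.26). At an unadjusted p under 0.05 the count was also 0, while DESeq2 called F2 lower. F2, prothrombin, had 1279, 1270.4, 1129 and 1365 CPM in KO replicates 1 to 4, against 1486, 1533, 1656 and 1783 CPM in WT replicates 1 to 4. All KO libraries were below all WT libraries, with a log2 fold change of -0.36 ± 0.17 (SE), adjusted p = 0.141 in edgeR's quasi-likelihood test, an adjusted p of 0.0169 in DESeq2 and, without WT replicate 3, -0.36, adjusted p = 0.0714. F5, the cofactor of factor Xa, had 296, 352, 253 and 358 CPM in KO replicates 1 to 4, against 373, 482, 263 and 671 CPM in WT replicates 1 to 4. WT replicate 3 lay at the low end of the KO range, and the other WT libraries were above all KO libraries. Its log2 fold change was -0.51 ± 0.27 (SE), adjusted p = 0.193, against -0.71, adjusted p = 0.0119 without WT replicate 3. F7, F9, F10, F11, F12 and F13b had log2 fold changes of -0.44 to 0.26 (adjusted p 0.204 to 0.837). Without WT replicate 3, F7 gave -0.48, adjusted p = 0.00555, and F11 gave -0.67, adjusted p = 0.00494. F11 (chromosome 8, 45241174 to 45262031) lies beside Klkb1, and F7, F10 and Proz lie together at 13026034 to 13076026 on the chromosome that also carries Atp7b; F11 had a log2 fold change of -0.44 ± 0.28 (SE), adjusted p = 0.2696 with all libraries.

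The 3 fibrinogen chains, which form the precursor of the clot, were not called (0 higher, 0 lower, median -0.30; 0 at an unadjusted p under 0.05, and 0 in DESeq2). Fga had 1920.2, 2613, 1789 and 2005 CPM in KO replicates 1 to 4, against 3473, 3799.8, 1324 and 3998 CPM in WT replicates 1 to 4. WT replicate 3 was below every KO library and the other WT libraries were above every KO library, and the log2 fold change was -0.60 ± 0.32 (SE), adjusted p = 0.192 with all libraries and -0.87, adjusted p = 0.001497 without WT replicate 3. Fgg had 3702, 2825, 3058 and 2760.2 CPM in KO replicates 1 to 4, against 3490.4, 3314, 4741 and 3682 CPM in WT replicates 1 to 4. Its WT libraries overlapped the KO range, and the log2 fold change was -0.30 ± 0.20 (SE), adjusted p = 0.295, and -0.19, adjusted p = 0.371 without WT replicate 3. Fgb, the neighbour of both on chromosome 3, had a log2 fold change of -0.25 (adjusted p = 0.418). Per kilobase of exon these were among the most abundant of the 43 genes, at 1475 in KO and 1819 in WT CPM per kb (Fgg), 984 in KO and 1168 in WT (Fgb) and 692 in KO and 1046 in WT (Fga), and Mbl2 (1501 in KO and 685 in WT) and C3 (806 in KO and 893 in WT) were of the same order. The lowest were Cfd (0.357 in KO and 1.12 in WT), Cfb (0.781 in KO and 0.7396 in WT) and Tfpi (1.94 in KO and 1.39 in WT). For Cfb the place in this order is uncertain, because most of its exon bases overlap another gene.

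In the contact and kinin group, Klkb1 was lower and both kininogen genes were not called. Kng1, a gene for kininogen, the protein from which bradykinin is released, had 1769, 1660.1, 1343 and 1747 CPM in KO replicates 1 to 4, against 2174, 1994, 1739 and 2720.5 CPM in WT replicates 1 to 4. WT replicate 3 lay inside the KO range and the other WT libraries above it. The log2 fold change of Kng1 was -0.40 ± 0.20 (SE), adjusted p = 0.162, against -0.51, adjusted p = 0.0299 without WT replicate 3, and that of its neighbour Kng2, which is a second mouse kininogen gene, was 0.16 ± 0.17 (SE), adjusted p = 0.5203. The pair shares 14.1% of the 50-base stretches of Kng1, so reads may be divided between them.

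Of the 4 anticoagulant genes, Pros1 was higher and Proc, Proz and Tfpi were not called. Proc, protein C, the protease for which protein S is the cofactor, had 389, 334, 342 and 342 CPM in KO replicates 1 to 4, against 458, 416, 593 and 487 CPM in WT replicates 1 to 4. All KO libraries were below all WT libraries, while the log2 fold change was -0.47 ± 0.17 (SE), adjusted p = 0.0621 in edgeR's quasi-likelihood test and 0.0114 was the adjusted p in DESeq2. Without WT replicate 3, the value was -0.38, adjusted p = 0.0352. Proz, protein Z, which helps inhibit factor Xa, was -0.34 (adjusted p = 0.161), and its genotypes also did not overlap. Tfpi, the inhibitor of the tissue factor pathway, was 0.50 (adjusted p = 0.186) with all libraries and 0.72, adjusted p = 0.0149 without WT replicate 3.

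In the fibrinolysis group, none of Plg, Hrg and Cpb2 was called with all libraries; at an unadjusted p under 0.05 both Plg and Hrg were, and DESeq2 called Plg. Plg, plasminogen, the precursor of plasmin, had 1768, 1462, 1376 and 1626 CPM in KO replicates 1 to 4, against 2083, 2242, 2054 and 2326 CPM in WT replicates 1 to 4. The genotypes did not overlap and WT replicate 3 stood with the other WT libraries. For Plg the log2 fold change was -0.48 ± 0.17 (SE), adjusted p = 0.0606, with -0.52, adjusted p = 0.0161 without WT replicate 3 and an adjusted p of 9.72e-04 in DESeq2. Hrg, histidine-rich glycoprotein, which binds plasminogen, heparin and metal ions, had 252, 262, 273 and 364 CPM in KO replicates 1 to 4, against 593, 597, 198 and 498 CPM in WT replicates 1 to 4. WT replicate 3 was the lowest of all 8 libraries and the other WT libraries were the highest. Its log2 fold change was -0.71 ± 0.32 (SE), adjusted p = 0.116, against -0.98, adjusted p = 4.26e-04 without WT replicate 3. Cpb2, the carboxypeptidase that slows fibrinolysis, was 0.31 (adjusted p = 0.478), and 0.70, adjusted p = 0.004098 without WT replicate 3.

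**Figure D3:**
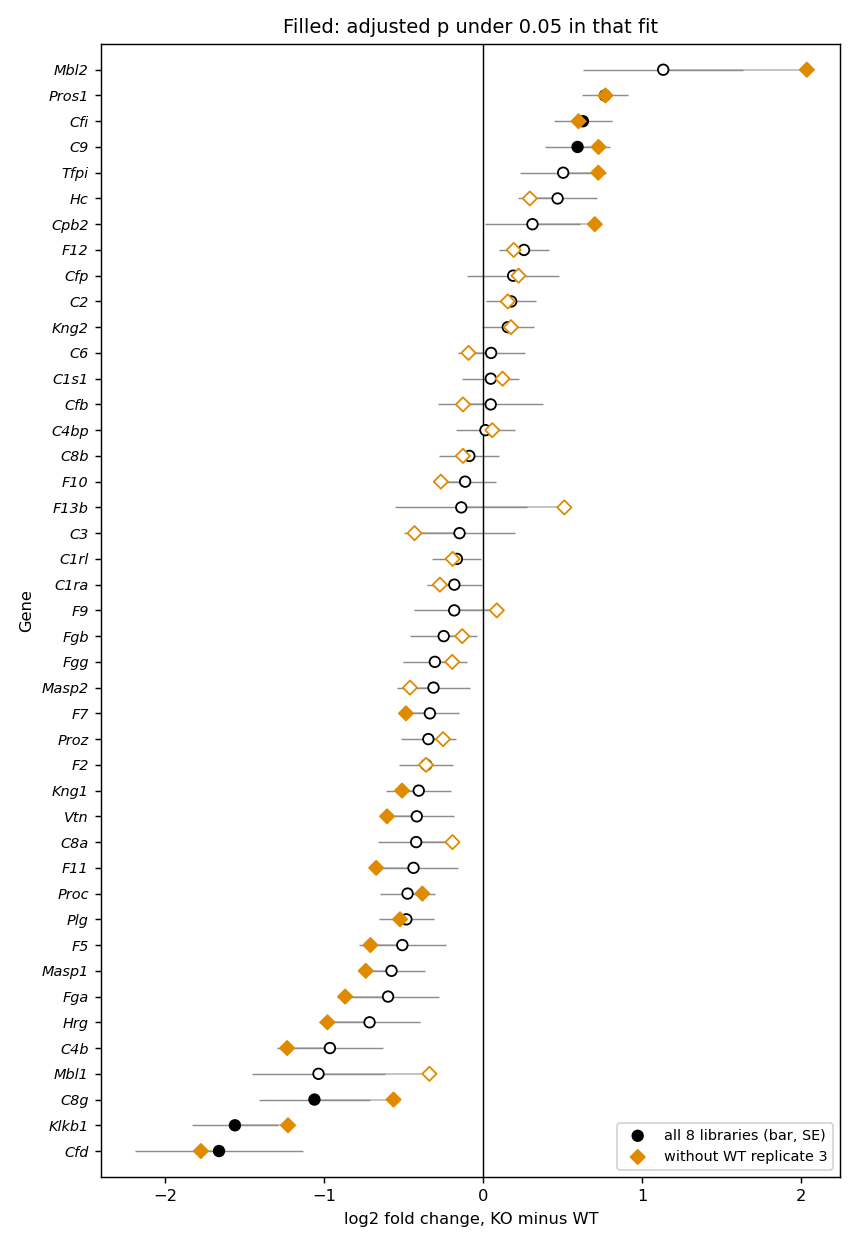
Log2 fold change, KO minus WT, of each of the 43 genes with all 8 libraries and without WT replicate 3, filled where the adjusted p was under 0.05 in that fit. With all libraries 6 genes are filled, and without WT replicate 3 there are 20, of which 6 lie above 0 and 14 below.

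Ratios between 2 genes counted in the same library do not depend on how that library was scaled, and 16 pairs of functional partners were compared in this way. The pairs were chosen with earlier results of these data known. A low p for a ratio therefore adds no independent support to the values of its 2 genes. The smallest p that an exact permutation test of 4 against 4 libraries can give is 0.0286, and 3 of the 16 pairs were at it. After adjustment over 16 pairs an adjusted p under 0.05 would need at least 10 pairs at that smallest p, so that 0 of the 16 passing says nothing of the single pairs. The log2 ratio of Mbl1 to Mbl2 was -3.15, -3.18, -3.14 and -2.8 in KO replicates 1 to 4, against -0.50, -0.57, -1.06 and -1.01 in WT replicates 1 to 4. All KO libraries were below all WT libraries, including WT replicate 3, although both genes were high there. The means were -3.07 ± 0.18 in KO and -0.79 ± 0.29 in WT (SD, n = 4 each), a difference of -2.28 (exact permutation p = 0.0286, 0.152 after adjustment over the 16 pairs). For protein C over protein S, the log2 ratio was 2.0, 1.77, 1.85 and 1.9 in KO replicates 1 to 4, against 3.19, 2.9, 3.35 and 3.01 in WT replicates 1 to 4, without overlap. It averaged 1.88 ± 0.10 in KO and 3.11 ± 0.20 in WT (SD, n = 4 each), with a difference of -1.23 (exact permutation p = 0.0286, 0.152 after adjustment over the 16 pairs). Kng2 over Kng1 was the third, at -2.06 ± 0.18 in KO and -2.62 ± 0.27 in WT (SD, n = 4 each), a difference of 0.55 (exact permutation p = 0.0286, 0.152 after adjustment over the 16 pairs). Here the genotypes were barely apart, with the lowest KO value at -2.219 in KO replicate 4 and the highest WT value at -2.221 in WT replicate 3. The other WT libraries lay at -2.78 to -2.70.

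The remaining 13 ratios had unadjusted p-values of 0.0571 or more. Fgg over Fgb, the 2 fibrinogen chains with the steadiest ratio, was -0.28 ± 0.04 in KO and -0.22 ± 0.04 in WT (SD, n = 4 each), a difference of -0.06 (exact permutation p = 0.171, 0.392 after adjustment over the 16 pairs). Fga over Fgb was at -2.08 in WT replicate 3 and at -0.17 to -0.03 in the other WT libraries, with a difference between genotypes of -0.25 (exact permutation p = 0.686, 0.784 after adjustment over the 16 pairs). Prothrombin over its inhibitor antithrombin (Serpinc1) gave 0.02 (exact permutation p = 0.8, 0.853 after adjustment over the 16 pairs), plasminogen over antiplasmin (Serpinf2) 0.09 (exact permutation p = 0.514, 0.633 after adjustment over the 16 pairs) and the C8 alpha over the gamma chain 0.53 (exact permutation p = 0.0571, 0.229 after adjustment over the 16 pairs).

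**Figure D4:**
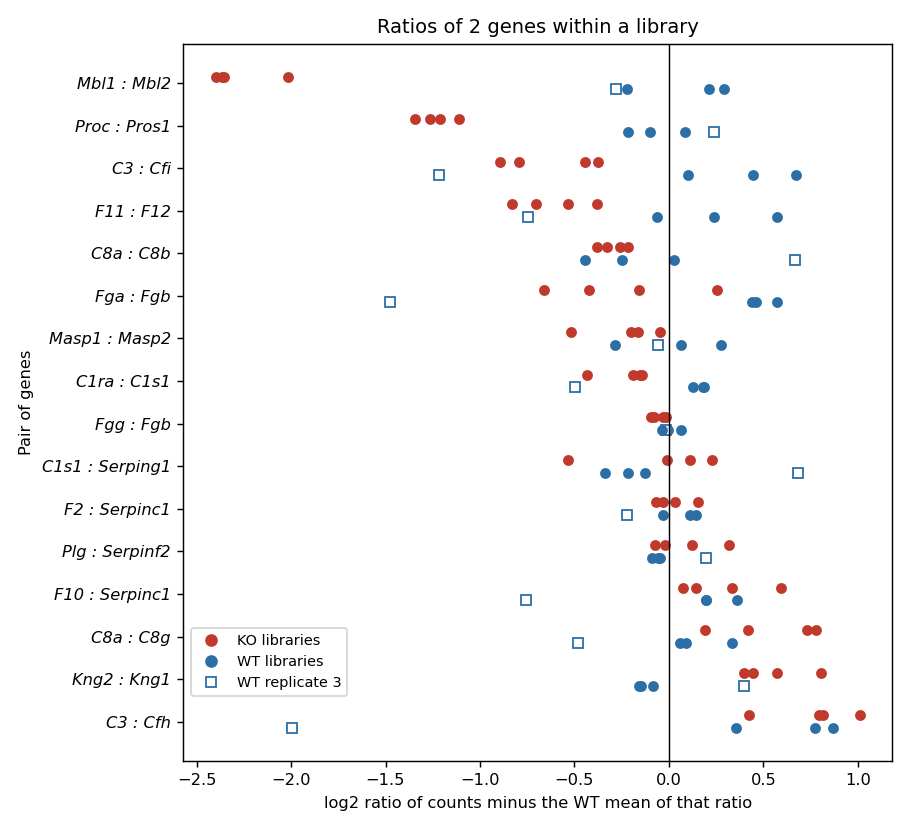
Log2 ratio of the counts of 2 genes within each library, minus the WT mean of that ratio, for the 16 pairs. KO libraries are red, WT libraries blue, and WT replicate 3 is an open square. The KO points of Mbl1 to Mbl2 and of Proc to Pros1 lie to the left of all WT libraries, and the KO points of Fgg to Fgb lie within a narrow range of the WT points.

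The number in each library's name falls into 3 series, which the labels do not call batches. They held KO replicates 1 and 2 with WT replicate 1, KO replicate 3 with WT replicate 3, and KO replicate 4 with WT replicates 2 and 4. Within these series, in that order, the difference in mean log2 CPM was 0.97, 0.71 and 0.66 for Pros1, and -1.32, -2.2 and -1.05 for Klkb1. Cfi gave 0.92, 0.34 and 0.56, C9 gave 0.53, 0.08 and 1.02, and C8g gave -0.64, -2.02 and -0.56. These 5 genes kept their direction in every series, while C9 lost its call with the series as a covariate (adjusted p = 0.0579). In that fit Mbl2 (0.0218) and Tfpi (0.0491) were called higher and Masp1 (0.0417) and C4b (0.0334) lower, with the adjusted p in parentheses. Cfd did not keep its direction, with -2.66, 0.20 and -2.65. Mbl2 gave 2.25, -0.11 and 1.72. The second series holds 1 library of each genotype.

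A list of 68 other genes of the pathway (receptors, regulators, cell-surface and vascular proteins, and proteins that modify or secrete the factors) was set beside the 43. Of these, 59 were tested, 17 were higher, 7 lower and 35 not called (40.7% called, beside 30.0% of all genes tested). Their median log2 fold change was 0.24. The 17 include genes with very few reads in WT libraries, which passed the filter on low counts through the KO libraries. Such genes could be called only as higher, which bears on the share and the median. The list was also written with earlier results of these data known. Of 8 complement receptors 4 were higher and 0 lower, of 9 fibrinolysis activators, receptors and inhibitors 4 were higher and 1 lower, and of 12 complement regulators 0 were higher and 4 lower.

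Among receptors, Cr2, the receptor for C3d on B cells, had 2.96 ± 0.40 (SE), adjusted p = 3.13e-04, and C3ar1, the receptor for C3a on myeloid cells, had 1.67 ± 0.32 (SE), adjusted p = 0.00291 (log2 fold changes, edgeR's quasi-likelihood test, here and in what follows). C1qb, a recognition gene, was higher in KO (1.07 ± 0.29 (SE), adjusted p = 0.0181). For 5 further genes called higher and named here, the WT libraries held 6 reads or fewer each. They passed the filter on low counts through the KO libraries, and the size of their fitted fold change is uncertain. Another gene called higher, which is not named, likewise held 5 reads or fewer in every WT library. Bdkrb2, the bradykinin receptor, had 25, 61, 48 and 19 reads in KO replicates 1 to 4, against 2, 0, 0 and 2 reads in WT replicates 1 to 4 (adjusted p = 4.29e-04). F13a1, the A chain of factor XIII, made by macrophages and megakaryocytes, had 14, 25, 18 and 29 reads in KO replicates 1 to 4, against 0, 3, 2 and 2 reads in WT replicates 1 to 4 (adjusted p = 0.00114). F2rl1, a protease-activated receptor, had 31, 75, 46 and 37 reads in KO replicates 1 to 4, against 1, 3, 2 and 6 reads in WT replicates 1 to 4 (adjusted p = 1.03e-04). In each of these genes every KO library held more reads than any WT library. C7, a terminal component, had 9, 20, 11 and 14 reads in KO replicates 1 to 4, against 6, 2, 1 and 2 reads in WT replicates 1 to 4 (adjusted p = 0.0273), and Serpina5, the protein C inhibitor, had 52, 89, 34 and 77 reads in KO replicates 1 to 4, against 4, 5, 2 and 4 reads in WT replicates 1 to 4 (adjusted p = 9.73e-05). Lymphocyte markers summed to 21.1 to 32.9 CPM in KO libraries and 10.2 to 20.4 CPM in WT libraries. The stellate sums given above did not overlap between genotypes and those of macrophages did, and the part of these cells in the values of the receptors, F13a1, C1qb and C7 was not tested.

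In fibrinolysis and control of coagulation, Anxa2, which binds plasminogen and its activator at the cell surface, had 3.32 ± 0.29 (SE), adjusted p = 1.98e-05, and Plat, tissue plasminogen activator, had 3.02 ± 0.37 (SE), adjusted p = 1.7e-04. Serpina10, the inhibitor for which protein Z is the cofactor, had 0.57 ± 0.17 (SE), adjusted p = 0.0247. Gas6, a vitamin K-dependent relative of protein S, was higher in KO (1.48 ± 0.27 (SE), adjusted p = 0.00223), and Ggcx, the carboxylase that modifies the vitamin K-dependent factors, was lower (-0.69 ± 0.21 (SE), adjusted p = 0.0295). Lower in KO were also Colec12, a membrane collectin (-2.12 ± 0.19 (SE), adjusted p = 1.93e-05), Susd4, a membrane inhibitor of complement (-2.7 ± 0.36 (SE), adjusted p = 2.95e-04), and Cpn2, a subunit of the carboxypeptidase that inactivates C3a and C5a (-0.71 ± 0.20 (SE), adjusted p = 0.0231). Calls were lost, with the adjusted p in parentheses, for C1qb without KO replicate 3 (0.0598) or KO replicate 4 (0.0548), for C7 without KO replicate 2 (0.0818), KO replicate 4 (0.0532), WT replicate 2 (0.0859) or WT replicate 4 (0.103), for Cpn2 without KO replicate 1 (0.0654), KO replicate 2 (0.0668), KO replicate 3 (0.0708), WT replicate 2 (0.0748) or WT replicate 4 (0.0603), for Serpina10 without KO replicate 1 (0.0785), KO replicate 2 (0.0537), KO replicate 4 (0.0669), WT replicate 1 (0.0681) or WT replicate 2 (0.0808) and for Ggcx without KO replicate 1 (0.0606), KO replicate 3 (0.0917), KO replicate 4 (0.08402), WT replicate 1 (0.0603), WT replicate 2 (0.0744) or WT replicate 4 (0.0719). With library totals only Cpn2 gave -0.32, adjusted p = 0.349, and Ggcx gave -0.29, adjusted p = 0.408; after removal of the 10 most abundant genes these were -0.36, adjusted p = 0.265, and -0.34, adjusted p = 0.319, and with upper-quartile factors -0.59, adjusted p = 0.0519, and -0.57, adjusted p = 0.0679. Ggcx was also not called with the stricter filter (0.0577), nor Serpina10 with no filter (0.0567). Without WT replicate 3 all of these named genes stayed called, with log2 fold changes of 2.86 (Cr2), 1.83 (C3ar1), 1.24 (C1qb), 3.1 (Anxa2), 3.05 (Plat), 0.64 (Serpina10), 1.29 (Gas6), -0.85 (Ggcx), -2.02 (Colec12), -2.9 (Susd4) and -0.87 (Cpn2), and with adjusted p-values for Bdkrb2, F13a1, F2rl1, C7 and Serpina5 of 1.65e-04, 3.27e-04, 3.53e-05, 0.0249 and 3.37e-05 in that order.

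**Figure D5:**
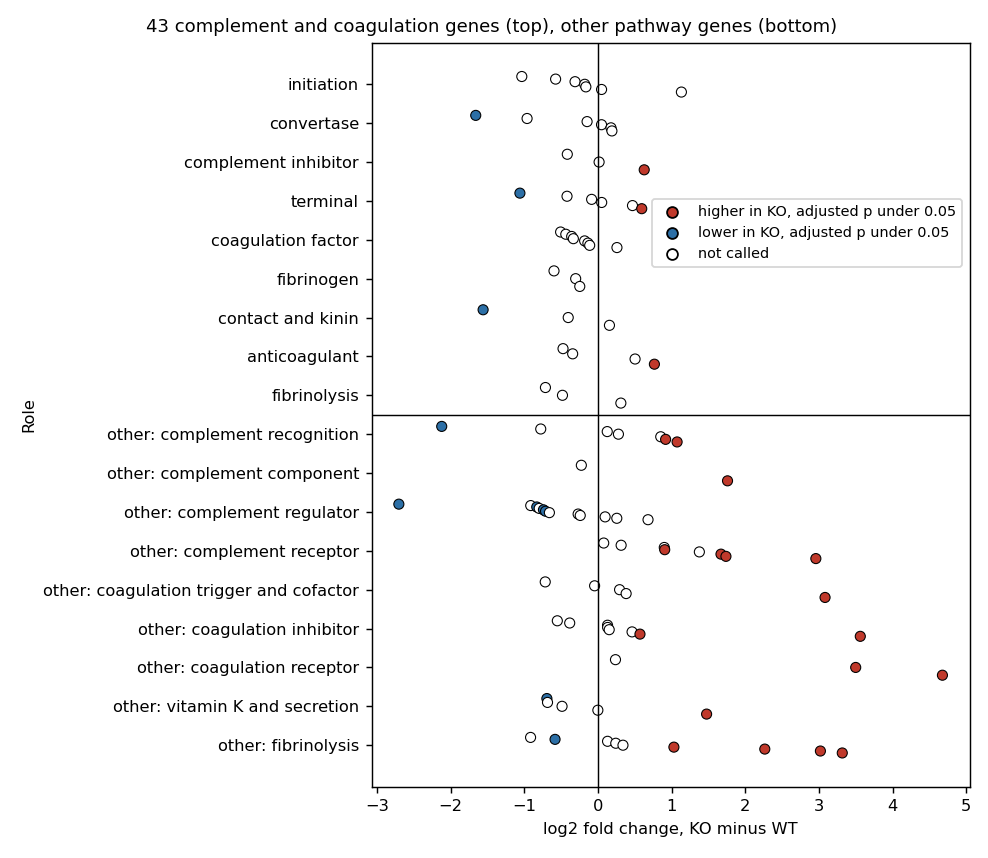
Log2 fold change, KO minus WT, of each gene by role, for the 43 complement and coagulation genes (top) and the other pathway genes (bottom). The 43 genes lie between -1.66 and 1.13, and the other pathway genes between -2.7 and 4.68. The highest of these is Bdkrb2, whose fitted value rests on 0 to 2 reads per WT library.

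Of 10 liver transcription factor genes, 1 was higher and 7 were lower (80.0% called, beside 30.0% of all genes tested). Their median log2 fold change was -0.82, against -0.05 over all genes tested and -0.62 over the 14 hepatocyte markers. This list, too, was written with earlier results of these data known, which bears on the share and the median. The higher one was Esr1, the estrogen receptor (1.0 ± 0.27 (SE), adjusted p = 0.0163). Esr1 was 1.08, adjusted p = 0.00295 without WT replicate 3, and its call was lost without KO replicate 1 (0.0541) or KO replicate 2 (0.0542). Foxa2 had 17.8, 18.1, 16.5 and 17.4 CPM in KO replicates 1 to 4, against 50.8, 36.8, 32.4 and 28.7 CPM in WT replicates 1 to 4, a log2 fold change of -1.09 ± 0.19 (SE), adjusted p = 0.001795. Cebpa had 125, 91.5, 93.02 and 118 CPM in KO replicates 1 to 4, against 222, 233, 428 and 218 CPM in WT replicates 1 to 4, a log2 fold change of -1.37 ± 0.25 (SE), adjusted p = 0.00228. Neither gene overlapped between the genotypes, and without WT replicate 3 they were -1.16, adjusted p = 1.49e-04 (Foxa2), and -1.08, adjusted p = 8.93e-05 (Cebpa). Hnf4a, like Esr1 chosen after its values were seen, had -0.63 ± 0.18 (SE), adjusted p = 0.0244, and with library totals only in place of TMM this was -0.21, adjusted p = 0.455, without the 10 most abundant genes -0.26, adjusted p = 0.331, with upper-quartile factors -0.50, adjusted p = 0.0567, with no filter -0.61, adjusted p = 0.0613, and without WT replicate 3 -0.70, adjusted p = 0.00304. The call of Hnf4a was lost without KO replicate 1 (0.0704), KO replicate 2 (0.0748), KO replicate 3 (0.0732), WT replicate 2 (0.07401) or WT replicate 4 (0.0729). Il6ra, the receptor chain for interleukin 6, had -1.28 ± 0.39 (SE), adjusted p = 0.0283, and -1.49, adjusted p = 0.00271 without WT replicate 3. Its call was lost without KO replicate 1 (0.0635), KO replicate 2 (0.0856), KO replicate 3 (0.0734), WT replicate 2 (0.0516) or WT replicate 4 (0.0849), with library totals only (-0.87, adjusted p = 0.106), without the 10 most abundant genes (-0.93, adjusted p = 0.0919) and with the stricter filter (0.0519).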

How the data were processed

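Liver RNA was sequenced from 4 KO and 4 WT libraries. Per the labels' protocols, RNA was isolated with Trizol, then DNase-treated and purified on Qiagen columns. FastQC, cutadapt, STAR and build mm10 are named per the submitters' processing notes. The sources used here do not name the counting program, its strand setting or the annotation release. The authors deposited raw read counts per gene.

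Genotypes were taken from the labels. Counts were filtered with filterByExpr, scaled with TMM factors and compared with edgeR 4.0.16's quasi-likelihood test (limma 3.58.1, R 4.3.3), and no term besides genotype. The Benjamini-Hochberg adjustment covered every gene tested, and an adjusted p under 0.05 was a call. Log2 fold changes are KO minus WT, and the SE is the fold change divided by the square root of F. CPM is on TMM-scaled totals. The 16 within-library log2 ratios (0.5 added to each count) were compared by a two-sided exact permutation test over 70 relabellings and adjusted over the 16. Identifiers were matched to GENCODE M21, where 54165 of 54232 (99.9%) were found. Total counts ranged over 9880253 to 27530506. The floor of 3 reads covers counting error only.

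The members, the other gene lists and the pairs were chosen with earlier results of these data known. Values in every library are given for the 2 members lowest in p-value within each of 9 role groups. Of the other pathway genes and regulators, up to 2 called genes per role are named. Alternatives were DESeq2 1.42.0, other scaling factors, no filter, a filter of 5 CPM in 4 libraries, the number series as a covariate, an adjusted p under 0.01 and leaving out each library. The values of 1 gene are not reported here.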

Additional observations from a re-analysis of the deposited data

Results flagged for a closer look

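In 10 of 86 groups of 4 libraries (43 genes in each genotype), 1 library lay far from the other 3, with a gap to its nearest neighbour above the critical value of Dixon's test. Chance gives about 1 in 20 groups if the groups are independent, which genes measured in the same libraries are not. The rule was not applied to all genes. WT replicate 3 was over 2-fold from the mean of the other 3 WT libraries in 27.9% of the 43 genes. Over all genes tested that share was 35.3%. WT replicate 3 was the far library in 8 of the 10. It was the highest WT library for Mbl1 at 861 CPM, where the next was 256, for Mbl2 at 1799 (next 460.3), for C8a at 1217 (next 728), for C8g at 1299 (next 515), for F9 at 396 (next 221), for Klkb1 at 468 (next 240.4) and for Cpb2 at 771 (next 379). For Hc it was the lowest, at 593 CPM, where the next was 988. KO replicate 3 was the highest KO library for Cfd at 0.813 CPM (next 0.192), and KO replicate 1 was the highest for Proc at 389 CPM (next 342).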

How the results depend on the processing

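Pros1 and Klkb1 kept their direction and their call in all 16 alternative fits, and none of the 6 called genes changed sign. Of the 37 others, 20 changed sign under at least 1 alternative, 15 of them under library totals only. With 3 members called higher and 3 lower, other settings gave the following counts. Library totals only gave 11 and 1, totals without the 10 most abundant genes 10 and 1, DESeq2 9 lower, upper-quartile factors 1 lower, no filter 5 lower, the stricter filter 1 lower, the number series as a covariate 5 lower, and an adjusted p under 0.01 1 and 1. Leaving out single libraries gave 1 to 6 higher and 1 to 14 lower, the upper ends without WT replicate 3. Over all genes, 2775 higher and 1971 lower became 4804 and 642 with totals only, 4485 and 743 without the top 10 genes, 4244 higher without a filter, 1512 and 1216 with the stricter filter, 912 lower at 0.01, and 2325 to 4267 higher and 1315 to 3837 lower with 1 library left out. Upper-quartile factors gave 3167 and 1424. Of the other pathway genes, 17 higher and 7 lower became 26 and 2 with totals only, 7 and 4 with the stricter filter, 11 and 2 at 0.01, 12 lower with DESeq2, 2 lower with upper-quartile factors or without the top 10 genes, and 2 to 12 lower with 1 library left out. The cause was not tested, except that the stricter filter tested fewer genes (10737). At these depths 3 reads correspond to 0.129 to 0.425 CPM, which limits Cfd. Among the other pathway genes named, it limits Bdkrb2, F13a1, F2rl1, C7 and Serpina5, whose WT libraries held 0 to 6 reads. No paired analysis was possible because the labels give no replicate numbers that the genotypes share.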
